A study of Mus musculus with 6 samples.

Results

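The 10 genes described here are the Notch receptors Notch1, Notch2, Notch3 and Notch4, the ligands Jag1, Jag2 and Dll4, and the targets Hes1, Hey1 and Heyl. They were taken from the table by symbol and are 10 of the 17556 genes listed for each ventricle. All 10 were among the 13817 genes that passed the filter on low counts. RNA was measured in 6 left ventricle samples, 3 with and 3 without Cre, at 4 days after permanent ligation of the left anterior descending artery, a surgical myocardial infarction. Both genotypes were siblings aged 6 to 10 weeks with floxed Yap (both alleles) and floxed Wwtr1 (a single allele), and both were fed tamoxifen citrate from the time of surgery. The Cre positive mice also carried a copy of MerCreMer, a tamoxifen inducible Cre, under the endogenous periostin promoter, while the Cre negative mice had wild-type Periostin. The driver is active in myofibroblasts, so in whole ventricle RNA all other cells keep their floxed alleles, and neither uninjured hearts nor mice with Cre and no floxed allele were among the samples. The labels do not say how many mice gave each library, so p-values measure the spread between these 6 samples.

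Notch receptors span the membrane and bind ligands of the Jagged and Delta-like families on a neighbouring cell. Binding lets ADAM proteases and then gamma-secretase cut the receptor, and the freed intracellular domain enters the nucleus and turns on genes with the DNA-binding protein Rbpj, among them the repressors of the Hes and Hey families. In blood vessels Notch1, Notch4 and Dll4 are known from endothelial cells, and Notch3 from pericytes and smooth muscle cells, where Jag1 on the endothelium is a well-known ligand. Yap and Wwtr1 (also called Taz) bind no DNA themselves and act mainly through TEAD transcription factors.

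Library totals ran from 13177888 to 14827579 estimated counts, and raw counts of the 10 genes from 172 to 1628, so that counting alone gives an error of 2.48% to 7.62% per value. Replicate 1 of the Cre negative ventricles stood apart, with a mean distance to the other libraries of 0.636 (root mean square log2 difference) against 0.468 to 0.517 for the others, and log2 fold changes of the Notch genes without it are given where they turn in direction or move by over 1.5 times. Counts of Y-linked genes were 16 and 12 in replicate 2 of the Cre negative and Cre positive ventricles and 1592 to 2034 in the others, so both genotypes held 1 ventricle with almost none. The targeted genes did not separate the genotypes in whole ventricle RNA. Yap1 was at 1547, 1473 and 1419 normalised counts in Cre negative and 1615, 1436 and 1474 in Cre positive ventricles (log2 fold change 0.03 ± 0.09, SE, edgeR adjusted p = 0.935). Wwtr1 gave a log2 fold change of 0.05 ± 0.08 (SE, edgeR adjusted p = 0.876). Postn, whose locus holds the Cre, was at 12157, 24639 and 26862 normalised counts in Cre negative and 12682, 14240 and 13486 in Cre positive ventricles (log2 fold change -0.66 ± 0.27, SE, edgeR adjusted p = 0.714). Without Cre negative replicate 1 its log2 fold change was -0.94 (edgeR adjusted p = 0.0182).

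Across the 10 genes, all 4 receptors, 2 of 3 ligands and 1 of 3 targets were higher on average in Cre positive ventricles, but no gene passed the test. By edgeR's quasi-likelihood test 0 of 10 members were called at an adjusted p under 0.05, where 0.00724% of all genes tested were called (1 gene). At an unadjusted p under 0.05 with a higher level, 1 member (Notch1) was counted, where 2.85% of all genes were. In 3 of 10 members (Notch1, Notch4 and Jag1) every Cre positive ventricle lay above every Cre negative one, which held for 7.55% of all genes. None lay wholly below, which held for 6.85% of all genes. The median log2 fold change was 0.16 over the members and 0.0062 over all genes tested, and it was 0.21 over receptors, 0.11 over ligands and -0.06 over targets. Of all genes, 51.2% were higher in Cre positive ventricles. Without Cre negative replicate 1 the members' median was 0.068, and 3 of 4 receptors, 3 of 3 ligands and 2 of 3 targets were higher, with a median of 0.013 over the targets.

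**Figure D1:**
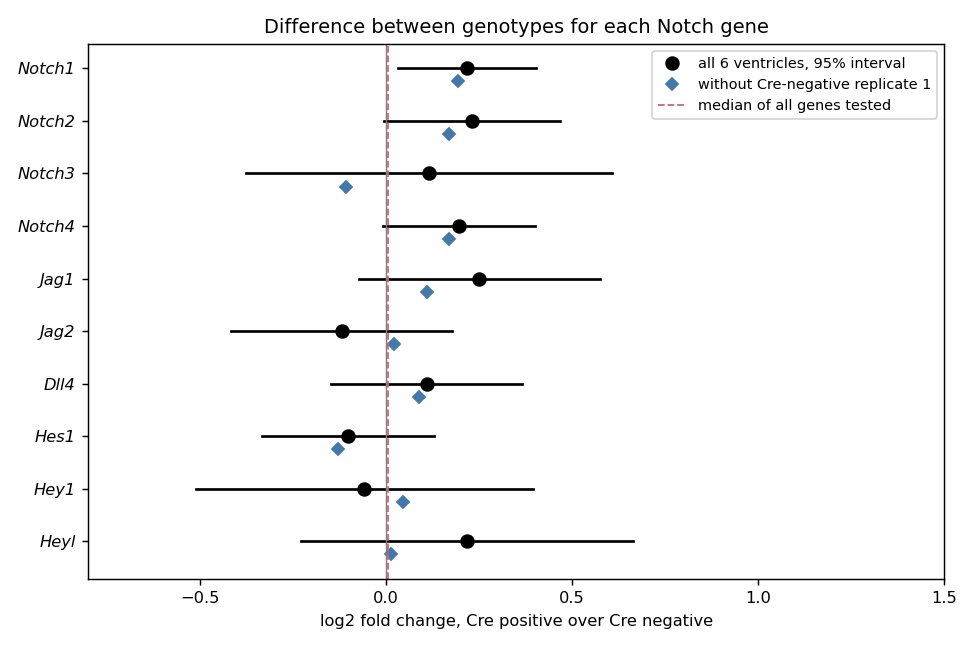
Log2 fold change of each Notch gene, Cre positive over Cre negative (x axis), with the 95% interval from edgeR (black) and the value without Cre negative replicate 1 (blue diamonds). The interval lies above 0 for Notch1 only, before adjustment for multiple testing, and the diamonds of Notch3, Jag2 and Hey1 lie on the other side of 0 from the black points.

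The receptors come first, with the sequence upstream of each start site. Promoter sequences were matched by gene number in RefSeq (GRCm38.p6) for 7 of the 10 genes. Hes1, Hey1 and Heyl had a position but no promoter sequence. Starts here are those of the promoter table, which lie 6 bases inside the gene span given below for Notch3, 9 for Notch4 and 317 for Jag2, and at its end for the other 4. The stretch from 250 to 131 bases before each start is printed because TEAD factors are the usual DNA-binding partners of Yap and Wwtr1, and capitals mark the letters CATTCC or GGAATG, the core of a TEAD binding motif read on either strand. The Notch1 stretch is chr2:26503953-26504072 (minus strand), that of Notch2 chr3:98013288-98013407 (plus), that of Notch3 chr17:32167021-32167140 (minus) and that of Notch4 chr17:34564045-34564164 (plus).
Notch1: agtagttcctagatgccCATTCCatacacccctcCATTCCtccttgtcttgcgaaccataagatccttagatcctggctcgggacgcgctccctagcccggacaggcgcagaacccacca
Notch2: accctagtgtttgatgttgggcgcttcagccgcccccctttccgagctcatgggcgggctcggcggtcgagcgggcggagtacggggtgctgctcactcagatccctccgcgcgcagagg
Notch3: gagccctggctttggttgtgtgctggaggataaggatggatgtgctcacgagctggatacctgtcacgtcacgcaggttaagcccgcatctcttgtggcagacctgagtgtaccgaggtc
Notch4: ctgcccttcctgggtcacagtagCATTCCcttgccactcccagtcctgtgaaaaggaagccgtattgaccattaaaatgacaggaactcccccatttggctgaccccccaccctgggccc
The TEAD letters were found 233 and 216 bases before that start in Notch1 and 227 bases before it in Notch4. They were not in the 250-base windows of the other 5 matched members. Of 32851 RefSeq windows of that length, 12.6% hold these letters at least once and 1.02% hold them 2 or more times. The letters TGGGAA or TTCCCA, the core of an Rbpj motif on either strand, were in 0 of the 7 windows and in 21.6% of all windows. These are matches of letters, and no binding was measured.

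Notch1 (gene number 18128; chr2:26457902-26503822, minus strand) was at 915, 925 and 979 normalised counts in Cre negative ventricles 1 to 3 and at 1046, 1097 and 1135 in Cre positive ventricles 1 to 3. The groups did not overlap, and the 3 values within each group lay close together. The means were 939 ± 34.5 and 1093 ± 44.9 (SD, n = 3 each), a 1.16-fold difference. On the log2 scale this was 0.22 ± 0.08 (SE), with a 95% interval from 0.03 to 0.40 and an unadjusted p of 0.0273 by edgeR's quasi-likelihood test. The adjusted p was 0.714, so the difference was not called, and the exact two-sided permutation test gave 0.1, the smallest p that 3 against 3 allows. Leaving out any single ventricle gave log2 fold changes from 0.19 to 0.25, but the unadjusted p by the same edgeR test was 0.0787 without Cre negative replicate 2, 0.0686 without Cre positive replicate 2 and 0.0994 without Cre positive replicate 3.

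Notch4 (gene number 18132; chr17:34564286-34588543, plus strand), a receptor best known from endothelial cells, was at 1044, 1071 and 1120 normalised counts without Cre and at 1168, 1339 and 1197 with it. Again every Cre positive ventricle lay above every Cre negative one, with replicate 2 the highest. The means were 1078 ± 38.4 and 1235 ± 91.6 (SD, n = 3 each), and the log2 fold change was 0.20 ± 0.09 (SE). Its 95% interval ran from -0.0088 to 0.40 (edgeR adjusted p = 0.714). Leaving out single ventricles gave 0.13 to 0.23.

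Notch2 (gene number 18129; chr3:98013538-98150367, plus strand) is a widely expressed receptor on the chromosome that also carries Postn and Wwtr1, 43.6 Mb and 40.4 Mb away. It was at 614, 702 and 692 normalised counts in Cre negative and at 700, 831 and 828 in Cre positive ventricles. The groups overlapped only through Cre positive replicate 1, which lay just under Cre negative replicate 2. The means were 669 ± 48.6 and 786 ± 74.9 (SD, n = 3 each), a log2 fold change of 0.23 ± 0.10 (SE; edgeR adjusted p = 0.714). In TPM the 3 Cre positive values lay above the 3 Cre negative ones, by 8.51 against 8.50 at the nearest.

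Notch3 (gene number 18131; chr17:32120820-32166896, minus strand), the receptor of mural cells, was at 891, 1543 and 1564 normalised counts in Cre negative and at 1267, 1482 and 1589 in Cre positive ventricles. Cre negative replicate 1 lay far below the other 5 ventricles, which spanned 1267 to 1589. The means were 1333 ± 383 and 1446 ± 164 (SD, n = 3 each), and the log2 fold change of 0.12 ± 0.21 (SE) was smaller than its error (edgeR adjusted p = 0.876). Without Cre negative replicate 1 the direction turned, to -0.11 (edgeR adjusted p = 0.870). Notch3 had the largest spread of the 10 genes, an SD of 0.32 in log2 over the 6 ventricles. That rank rested on Cre negative replicate 1: without it the coefficient of variation in TPM was 10.0% for Notch3 and 19.2% for Hey1.

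Among the ligands, Jag1 (gene number 16449; chr2:137081451-137116520, minus strand) was at 259, 353 and 363 normalised counts in Cre negative ventricles and at 389, 395 and 378 in Cre positive ventricles. The Cre positive values lay within a narrow band above all 3 Cre negative values, of which replicate 1 was the lowest. The means were 325 ± 57.7 and 387 ± 8.76 (SD, n = 3 each). The log2 fold change of 0.25 ± 0.14 (SE) was the highest of the 10 genes, with a 95% interval from -0.07 to 0.58 (edgeR adjusted p = 0.714). Without Cre negative replicate 1 it was 0.11, with the groups still apart.

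Jag2 (gene number 16450; chr12:112907803-112929812, minus strand), the other Jagged ligand, differed in sign. It was at 710.0, 519 and 555 normalised counts in Cre negative and at 529, 537 and 574 in Cre positive ventricles. Cre negative replicate 1, the lowest ventricle for Jag1, was the highest for Jag2, and the other 5 ventricles spanned 519 to 574. The log2 fold change was -0.12 ± 0.13 (SE; edgeR adjusted p = 0.785), and 0.022 without that ventricle. Dividing Jag1 by Jag2 in TPM gave 0.312, 0.575 and 0.563 in Cre negative and 0.623, 0.619 and 0.567 in Cre positive ventricles, so the groups overlapped and the low ratio was that of Cre negative replicate 1.

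Dll4 (gene number 54485; chr2:119325784-119335666, plus strand), the Delta-like ligand of sprouting and arterial endothelium, was at 423, 459 and 417 normalised counts without Cre and at 438, 531 and 432 with it. Cre positive replicate 2 was the highest and the other 5 ventricles overlapped. The log2 fold change was 0.11 ± 0.11 (SE; edgeR adjusted p = 0.777), and leaving out Cre positive replicate 2 brought it to 0.0066.

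**Figure D2:**
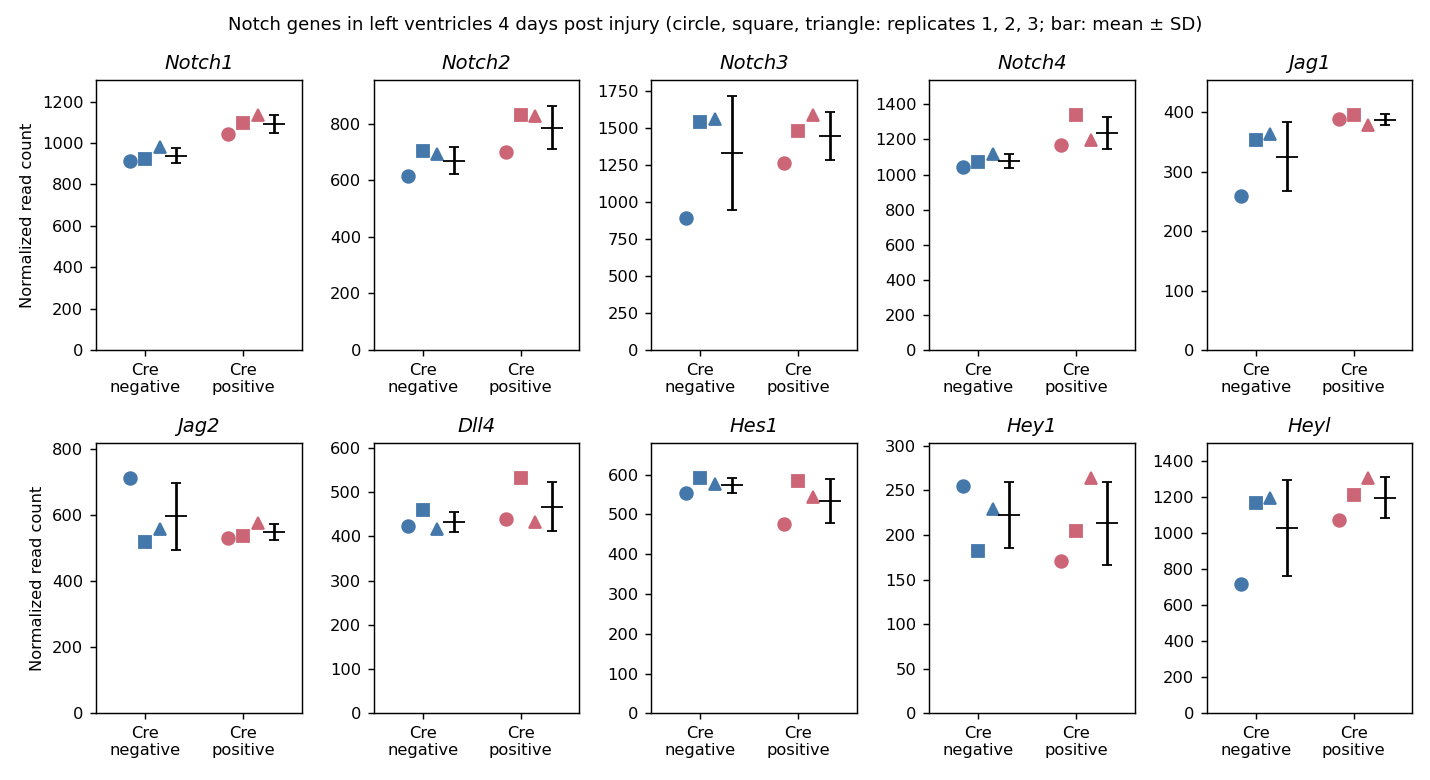
Normalised read counts of the 10 Notch genes (y axis, from 0) in each ventricle, by genotype, with circles, squares and triangles for replicates 1, 2 and 3 and bars for the mean ± SD (n = 3). The groups are apart in Notch1, Notch4 and Jag1, and Cre negative replicate 1 is the lowest ventricle in Notch3 (891), Heyl (717) and Jag1 (259).

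Of the targets, Heyl (gene number 56198; chr4:123233556-123249870), a Hey family repressor found in vascular smooth muscle, was at 717, 1167 and 1194 normalised counts in Cre negative and at 1072, 1212 and 1301 in Cre positive ventricles. As for Notch3, Cre negative replicate 1 was far below the rest. The log2 fold change was 0.22 ± 0.19 (SE; edgeR adjusted p = 0.751), and 0.013 without that ventricle.

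Hes1 (gene number 15205; chr16:30065357-30067796), a repressor induced by Notch in many cell types, was at 552, 591 and 576 normalised counts in Cre negative and at 476, 584 and 543 in Cre positive ventricles. The groups overlapped, with Cre positive replicate 1 the lowest. The log2 fold change was -0.10 ± 0.10 (SE; edgeR adjusted p = 0.772), and it was -0.02 without Cre positive replicate 1 and -0.17 without Cre positive replicate 2. Its spread over the 6 ventricles, an SD of 0.12 in log2 normalised counts, was the smallest of the 10 genes. In TPM Jag2 varied less, with a coefficient of variation of 7.82% against 10.9% for Hes1.

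Hey1 (gene number 15213; chr3:8663359-8667038), an endothelial and endocardial target, was at 255, 182 and 229 normalised counts in Cre negative and at 171, 205 and 264 in Cre positive ventricles. Each group spanned nearly the whole range of the other. The log2 fold change was -0.06 ± 0.19 (SE; edgeR adjusted p = 0.939), with a 95% interval from -0.51 to 0.39, and it turned to 0.047 without Cre negative replicate 1. Of the 3 targets, Heyl thus gave a value above 0 and Hes1 and Hey1 values below it, and each interval spanned 0. The interval that reached highest of all 10 members was that of Heyl, which ended at a 1.58-fold difference.

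Levels were compared between genes in TPM, which is per transcript length. Hes1 was the most abundant, with 45.3 to 60.1 TPM over the 6 ventricles and a mean of 52.8, above every other member in every ventricle. Heyl followed with a mean of 32.0 TPM (18.3 to 38.9), then Notch4 with 22.7 and Notch3 with 22.4 TPM. Notch4 was above Notch3 in 3 of 6 ventricles, so their order was not settled. Dll4 (17.1 TPM), Jag2 (15.6 TPM), Notch1 (13.8 TPM) and Hey1 (13.2 TPM) came next, each with a range that overlapped its neighbour's. Notch2 (8.93 TPM) and Jag1 (8.36 TPM) were the least abundant receptor and ligand. Hes1 and Heyl were the only neighbours in this order whose ranges did not overlap. Jag2 was above Jag1 in every ventricle, by 14.1 to 17.3 TPM against 5.40 to 9.91 TPM.

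**Figure D3:**
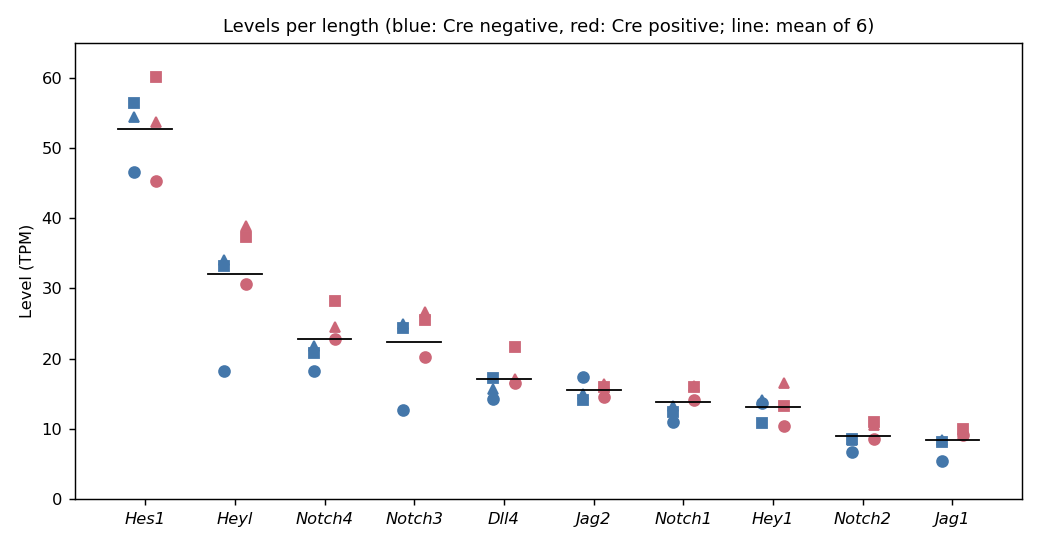
Level of each Notch gene in TPM (y axis, from 0), ordered by the mean of the 6 ventricles (line), with blue for Cre negative and red for Cre positive ventricles. Hes1 (mean 52.8 TPM) stands above the others, and neighbours from Heyl (32.0 TPM) to Jag1 (8.36 TPM) overlap.

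Because the tissue is a whole ventricle, fewer cells of a type and less RNA per cell cannot be told apart in these values. All 10 cardiomyocyte, 10 endothelial and 10 mural and smooth muscle markers were detected in every ventricle. Cardiomyocyte markers summed to 41835 to 48156 TPM in Cre negative and 35599 to 40587 TPM in Cre positive ventricles, and 10 of 10 were lower on average with Cre. Cre negative replicate 1 had the highest sum and weighed on that count. Ttn averaged 34275 normalised counts with Cre, above Cre negative replicates 2 and 3 (32261 and 33322). The same held for Ryr2 (11082 against 10590.5 and 10406). Endothelial markers summed to 676 to 792 TPM in Cre negative and 793 to 887 TPM in Cre positive ventricles, with 6 of 10 higher and a median log2 fold change of 0.04 on normalised counts. Mural and smooth muscle markers summed to 728, 1221 and 1348 TPM in Cre negative and 1277, 1465 and 1499 TPM in Cre positive ventricles, with 8 of 10 higher and a median of 0.25. That median was not computed without Cre negative replicate 1, which had the lowest mural sum. Fibroblast markers summed to 5204, 7975 and 7118 TPM in Cre negative and 8873, 7719 and 9056 TPM in Cre positive ventricles, with 6 of 8 higher and a median of 0.11. None of these markers was called between genotypes. The part of these cell types in the Notch values was not tested.

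Notch3, Heyl and Jag1 were set against the mural markers. Per 1000 TPM of mural markers, Heyl was at 25.1, 27.1 and 25.3 TPM in Cre negative and at 23.96, 25.5 and 26.0 TPM in Cre positive ventricles, a coefficient of variation of 4.10% against 23.0% for Heyl alone. Notch3 was at 17.5, 20.0 and 18.5 TPM without Cre and at 15.8, 17.4 and 17.7 TPM with it on the same scale, with a coefficient of variation of 7.75% against 23.3% for Notch3 alone. For Jag1 it was 7.14% against 19.0%, and 12.6% per endothelial sum. Of the 10 members, 4 varied less per mural sum than alone and 6 varied more, Jag2 the most (38.8% against 7.82%). Per endothelial sum 9 of 10 varied less than alone, among them Notch3 (17.8%) and Heyl (16.5%). The mural values rested largely on Cre negative replicate 1. Without it the coefficients per mural sum were 4.51% against 9.60% alone for Heyl, 8.56% against 10.0% for Notch3 and 5.75% against 8.01% for Jag1. Per endothelial sum they were then 5.25%, 8.25% and 5.48%, in the same order of genes. Without that ventricle every member except Hes1 (11.1% against 10.2%) varied less per mural sum than alone, Jag2 included (2.51% against 6.31%). In 2 of 6 ventricles, Cre negative replicate 2 and Cre positive replicate 1, Notch3 and Heyl lay on the other side of their means from the mural markers. Cre negative replicate 1, the low ventricle for all 3 genes, also had the lowest TPM sums of mural, endothelial, fibroblast (5204 TPM against 7118 to 9056) and macrophage markers (2419 TPM against 3280 to 3942). It had the highest sums of cardiomyocyte and neutrophil markers (429 TPM against 54.5 to 165 for the latter). On normalised counts 7 of the 10 mural and smooth muscle markers were lowest in that ventricle, among them Acta2 (5688 against 9232 to 11110) and Pdgfrb (1918 against 2728 to 3232), while Rgs5, Kcnj8 and Abcc9 were not. The mean of the endothelial markers on log2 normalised counts was not lowest there either, at 0.04 above its own mean, with the other 5 ventricles between -0.06 and 0.07.

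Notch1 and Notch4, known from endothelial cells, were set against the endothelial markers. Per 1000 TPM of endothelial markers, Notch1 was at 16.3, 15.9 and 16.7 TPM in Cre negative and at 17.8, 18.8 and 18.1 TPM in Cre positive ventricles, so the groups did not overlap. Notch4 was at 27.0, 26.7 and 27.57 TPM without Cre and at 28.7, 33.2 and 27.64 TPM with it, so the groups did not overlap but nearly touched. Dll4 overlapped, at 21.0 ± 1.14 TPM and 21.9 ± 3.21 TPM (SD, n = 3 each). Groups did not overlap in 2 of 10 members per endothelial sum, where 13.5% of all genes were apart in either direction, and in 0 of 10 per mural sum, where 15.4% were. With the mean log2 normalised count of the same endothelial markers in place of their sum, Notch1 was again apart and Notch4 overlapped. Without Cre negative replicate 1, the coefficient of variation of Notch1 was 6.60% per endothelial and 5.03% per mural sum. That of Notch4 was 9.04% and 7.25%. The ratios were computed after the values of the genes had been seen.

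**Figure D4:**
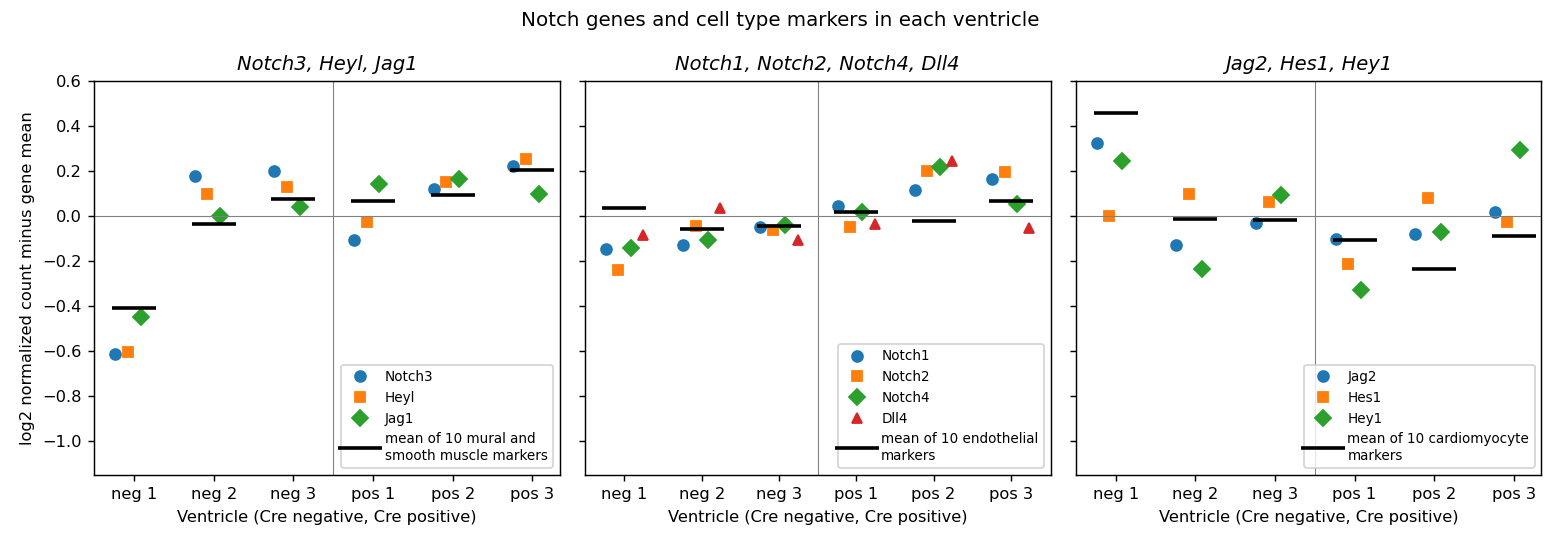
Log2 normalised count of each Notch gene in each ventricle minus that gene's mean (y axis), beside the mean of 10 cell type markers treated in the same way (black bars). In the left panel Notch3, Heyl, Jag1 and the mural markers are all lowest in Cre negative replicate 1, and in the middle panel Notch1 and Notch4 are higher in all 3 Cre positive ventricles.

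Ratios between members within a ventricle do not depend on library scaling, and 8 were computed. Notch3 over Heyl in TPM was 0.695, 0.737 and 0.732 in Cre negative and 0.660, 0.683 and 0.682 in Cre positive ventricles. The 3 Cre positive ratios lay below the 3 Cre negative ones, at 0.675 ± 0.0129 and 0.721 ± 0.0233 (SD, n = 3 each). It was the only one of the 8 ratios whose groups did not overlap, and its exact two-sided permutation p was 0.1, the smallest possible, before any adjustment over the 8. Notch1 over Notch4 did not separate the genotypes, at 0.602 ± 0.0043 and 0.613 ± 0.0449.

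The genes with patterns most like that of Notch3 across the 6 ventricles were Slc29a3, Psd4 and Ppfia4, by the root mean square difference of centred log2 normalised counts (0.036, 0.037 and 0.037). Heyl was the member nearest to Notch3, at 0.057, rank 16 of all genes tested. For Notch1 the nearest were Asns, Mtf1 and Virma (0.019, 0.024 and 0.026), and the nearest member was Notch4 at 0.063, rank 138.

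The wider pathway was examined as 60 further genes, of which 53 were tested. Of these 38 were higher and 15 lower on average in Cre positive ventricles, with a median log2 fold change of 0.09, and 0 were called by edgeR's quasi-likelihood test. At an unadjusted p under 0.05, 3 were higher and 3 lower, where 2.85% and 2.98% of all genes were. Of these 6, 3 stayed under 0.05 without Cre negative replicate 1, 2 without Cre negative replicate 2, 5 without Cre negative replicate 3, and 1, 1 and 4 without Cre positive replicates 1, 2 and 3. In 8 of the 53 every Cre positive ventricle lay above every Cre negative one and in 5 below, against 7.55% and 6.85% of all genes. Adam10, the protease that makes the ligand-induced cut, was at 1155, 1283 and 1462 normalised counts in Cre negative and 1533, 1630 and 1552 in Cre positive ventricles (log2 fold change 0.27 ± 0.10, SE). Spen, a corepressor that binds Rbpj, was at 763, 702 and 758 against 913, 869 and 821 normalised counts (0.23 ± 0.08). Efnb2, the arterial ephrin ligand and a Notch target, was at 493, 478 and 536 against 597, 609 and 593 normalised counts (0.26 ± 0.08). These 3 genes lay higher in every Cre positive ventricle than in any Cre negative one.

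In the other direction, Hes6, a Hes family member that opposes Hes1, was at 329, 355 and 286 normalised counts in Cre negative and 232, 260 and 257 in Cre positive ventricles (log2 fold change -0.37 ± 0.12, SE). Gata2, an endothelial and blood cell transcription factor, was at 293, 253 and 274 against 208, 186 and 251 normalised counts (-0.34 ± 0.14). Epn1, an adaptor for the endocytosis of ligands, was at 6516, 4906 and 4638 against 4480, 4010 and 4241 normalised counts (-0.33 ± 0.14), and at -0.17 on the log2 scale without Cre negative replicate 1. The groups were apart in all 3, and all 6 named pathway genes had an edgeR adjusted p of 0.714. All 6 were picked by their unadjusted p in this same fit. That choice favours groups that lie apart, so the separation is not further evidence.

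By role, the genes that add sugars to the receptors were higher in 4 of 5 (median log2 fold change 0.20) and the nuclear complex of Rbpj and its coactivators in 6 of 7 (0.08). Negative regulators were higher in 9 of 11 (0.10), receptor cleavage genes in 6 of 9 (0.04) and ligand endocytosis genes in 4 of 6 (0.12). Corepressors were higher in 4 of 7 (0.10), and the remaining targets in 3 of the 6 that were tested (0.07). Both remaining ligands that were tested were also higher (0.15).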

How the data were processed

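The samples were 3 Cre negative and 3 Cre positive left ventricles, grouped by their labels. For each gene in each ventricle the authors deposited an estimated count, the TPM (scaled by transcript length and library) and the FPKM. The deposited estimated counts, which divide shared reads between genes, are not normalised, and 11.5% of them are not whole numbers (none for the 10 Notch genes). FPKM values were not used, nor was a deposited DESeq2 comparison of the genotypes (log2 fold changes, p-values and q-values). The submitters' processing notes name Bowtie2 2.2.5, RSEM 1.2.12 and the build GRCm38.p6, without their roles. 0 columns of samples were left out.

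Rounded counts were tested with edgeR 4.0.16 (R 4.3.3). The filter on low counts was filterByExpr (minimum count 10, minimum total 15), libraries were scaled by TMM, and the genotypes were compared by the quasi-likelihood test with no covariate and Benjamini-Hochberg adjustment over all 13817 genes tested (threshold 0.05). Normalised counts were scaled by TMM to a library of 14264187 counts, the mean of the 6, and 95% intervals come from the same fit. The procedure was tested on simulated data. A count of 0 allows up to 3 counts, which covers counting error only. Single values were compared by exact permutation tests.

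Alternatives were DESeq2 1.42.0, limma 3.58.1 on log2(TPM + 1) and log2(TPM + 0.1), other scalings and filters, a replicate block, a covariate for Y-linked genes, and each ventricle left out. Named genes were the members, the targeted genes Yap1, Wwtr1 and Postn, and other pathway genes with an unadjusted p under 0.05. The 3 genes nearest in pattern to the member with the largest spread and the one with the smallest p were also named. Some cell type markers were named as well. The members and lists were chosen with earlier results of these data known. Positions and promoters are from RefSeq on GRCm38.p6. Figures used matplotlib 3.10.9 in Python 3.11.15.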

Additional observations from a re-analysis of the deposited data

How the results depend on the processing

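No member and no other pathway gene was called in any of 15 alternatives, and the lowest adjusted p of a member was 0.509. Of all genes, 1 was called in the reported fit, 5 by DESeq2, 2 by limma on log2(TPM + 1), 2 on log2(TPM + 0.1), and 0 to 2 with single ventricles left out. The replicate block called 0 genes (1217 at an unadjusted p under 0.05), and since deviations of same-numbered ventricles correlated at 0.331, 0.045 and -0.030, the numbers were not taken as pairs. The members' median of 0.16 became 0.28 and 0.29 on the 2 TPM scales, where the median of all genes moved from 0.0062 to 0.11 and 0.12, and 0.068 to 0.24 with ventricles left out. On those scales Jag2 (0.020 and 0.021), Hes1 (0.0098 and 0.0099) and Hey1 (0.042 and 0.044) turned to values just above 0, below the shift of all genes. With single ventricles left out, Notch3 ran from -0.11 to 0.25, Jag2 from -0.21 to 0.022, Hey1 from -0.24 to 0.077, Hes1 from -0.17 to -0.02 and Yap1 from -0.024 to 0.061, and Jag1, Dll4 and Heyl shrank to 0.11, 0.0066 and 0.013 at the lowest. The cause was not tested. Every Cre positive ventricle lay above every Cre negative one in 4 members in TPM (15% of all genes). In an alternative chosen after seeing the data, this held in 3 members without Cre negative replicate 1 (12.1%). By mean log2 marker counts, also chosen after seeing the data, 2 of 20 ratios to markers were apart, Notch1 to endothelium and Jag2 to mural cells. No share over all genes was computed on that scale. Per summed TPM 2 of 20 were apart too, where 13.5% (endothelial) and 15.4% (mural) of all genes were. Counting error was 2.48% to 7.62% of a member's value, highest for the lowest count (Hey1), which limits how small a difference single ventricles can show.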
